A study of Mus musculus with 6 samples.

Results

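Transcripts of 9 keratins and of vimentin were examined in 4T1 cells, a mouse mammary carcinoma line, with and without overexpression of METTL7A1, a putative methyltransferase. The 10 genes, Krt5, Krt7, Krt8, Krt14, Krt17, Krt18, Krt19, Krt20, Krt80 and Vim, were read by symbol from the 48587 genes of the count table, and each symbol had 1 entry. Total RNA was sequenced in 6 libraries, 3 of METTL7A1 cells and 3 of mock cells, which the study describes as biological triplicates. METTL7A1 cells carried the full Mettl7a1 cDNA under a CMV promoter after stable transfection and were kept under G418 selection, and the study describes its mock 4T1 cells as carrying the empty vector. The sources used here do not state whether each line was a clone or a pool, or whether the triplicates came from separate transfections, so p-values measure the spread between these libraries only.

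Keratins and vimentin build intermediate filaments, the rope-like part of the cytoskeleton that resists stretching. Keratins form obligate pairs of a type I with a type II chain: Krt8 (type II) pairs with Krt18 (type I) in simple epithelia such as the luminal layer of the mammary gland, where Krt7 (type II) and Krt19 (type I) are also found, whereas Krt5 (type II) pairs with Krt14 (type I) in basal and myoepithelial cells, and Krt17 (type I) is made in basal and stressed epithelium. Vimentin forms filaments of its own in mesenchymal cells and in many carcinoma cells that have taken on mesenchymal traits.

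Library totals ranged from 18386780 to 28459338 counts, and 13166 genes that reached 1 cpm (reads of a gene scaled to a common library size) in 3 or more libraries were tested. This filter used the library totals as they were, and the cpm levels below were scaled after TMM normalization. Mettl7a1 itself stood at 6355 to 11358 counts in METTL7A1 and at 29 or 30 counts in mock libraries, so every library followed its label. At an adjusted p under 0.05 (edgeR quasi-likelihood test, Benjamini-Hochberg adjustment over all genes tested, used for every adjusted p below), 42.1% of the tested genes differed, with 21.1% rising and 21.0% falling in METTL7A1 cells. In 51.6% of the tested genes the METTL7A1 libraries lay entirely above or entirely below the mock libraries. At the thresholds of the study, an adjusted p under 0.01 and an absolute log2 fold change over 1.5, 2.48% of the tested genes differed. The line was checked against cell type markers: all 5 epithelial markers (Epcam, Cdh1, Cldn3, Cldn4 and Cldn7) were tested, with a summed level of 938 to 1416 cpm per library, whereas the 5 leukocyte markers summed to at most 0.324 cpm and the 5 endothelial markers to at most 0.973 cpm.

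Krt14 and Vim fell in METTL7A1 cells, Krt7 and Krt80 rose, and Krt8, Krt18 and Krt19 did not pass the test. Thus 4 of the 7 tested members differed, 2 in each direction, beside 42.1% of all tested genes in either direction. The same 4 were the tested members whose groups did not overlap, beside 51.6% of all tested genes, and the median log2 fold change of the 7 was 0.00, against -0.03 over all tested genes. Only Krt14 passed the thresholds of the study. Krt5, Krt17 and Krt20 had too few counts to be tested. In RNA of whole cultures, fewer cells that express a gene and less of its RNA in each cell cannot be told apart.

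Levels of different genes were compared as cpm per kb of exon length, to put long and short transcripts on 1 scale. The length is that annotated for the gene, 4094 bases for Krt7 against 1400 for Krt18, 1805 for Krt8 and 2193 for Vim. The order depends on these lengths. In cpm, Krt7 stood highest in METTL7A1 cells (mean 533, against 426 for Krt18, 406 for Krt8 and 252 for Vim). The treatment of reads with several matches, which is not given, also limits the order. Krt8 shares 36% of its stretches of 31 bases with other genes, Krt18 11.4%, Krt7 3.03% and Vim 0.187%. If such reads were dropped, Krt8 could be lowered more than Krt18, so the order of Krt18 and Krt8 below is not settled. In mock cells Krt18 (257 ± 27.3 cpm per kb, SD, n = 3), Vim (257 ± 27.1) and Krt8 (224 ± 27.8) led, and their ranges overlapped. Krt7 (91.8 ± 7.14), Krt19 (34.0 ± 3.58), Krt14 (22.3 ± 0.682) and Krt80 (12.8 ± 0.451) followed, each with its libraries below those of the member before it. In METTL7A1 cells Krt18 stood highest (304 ± 43.5 cpm per kb), followed by Krt8 (225 ± 25.4), and their ranges did not overlap. Krt7 (130 ± 11.3) and Vim (115 ± 12.6) came next with overlapping ranges, so on this scale vimentin had moved from the leading group to the level of Krt7. Krt19 (29.3 ± 2.83), Krt80 (20.8 ± 2.37) and Krt14 (5.76 ± 0.425) followed without overlap, and Krt80 and Krt14 had exchanged places relative to mock. By mean level per kb over all libraries, Krt18, Krt8, Vim and Krt7 ranked at percentiles 99.0, 98.7, 98.4 and 97.0 of the tested genes.

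**Figure D1:**
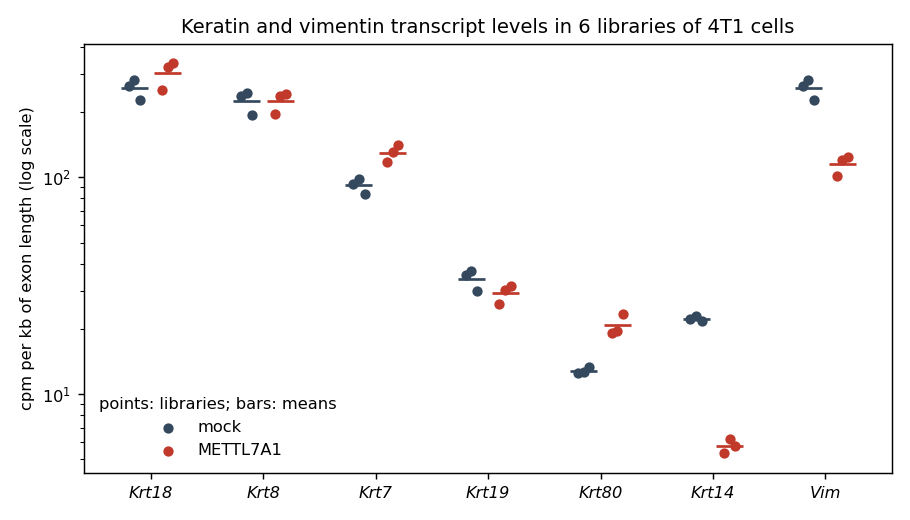
Level of each tested member in cpm per kb of exon length (vertical axis, log scale), with a point for each library and a bar for the mean of 3, mock in dark blue and METTL7A1 in red. The METTL7A1 points lie below the mock points for Krt14 and Vim and above them for Krt7 and Krt80, and the points of the groups overlap for Krt18, Krt8 and Krt19.

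The simple keratins were described first. Krt7 (chr15:101412402-101430313, build mm10, plus strand) had 485, 537 and 577 cpm in METTL7A1 replicates 1 to 3 and 381, 402 and 345 cpm in mock replicates 1 to 3. All METTL7A1 libraries lay above all mock libraries. Its mean rose from 376 ± 29.2 to 533 ± 46.2 cpm (SD, n = 3 per group), giving a log2 fold change of 0.50 (SE 0.09, 95% interval 0.30 to 0.71, edgeR adjusted p = 0.00126). On the linear scale this was a 1.42-fold rise (95% interval 1.23 to 1.63).

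Krt8 (chr15:101996711-102004342, minus strand) had 353, 428 and 437 cpm in METTL7A1 cells and 427, 441 and 348 cpm in mock cells, so each group held 1 low library (METTL7A1 replicate 1 and mock replicate 3) and the groups overlapped throughout. The means were 406 ± 45.8 and 405 ± 50.2 cpm (SD, n = 3 each). The log2 difference was 0.00 (SE 0.11, edgeR adjusted p = 0.978), and its 95% interval of -0.24 to 0.25 allows between a 0.848-fold and a 1.19-fold level. Krt8 shares 32.2% of its stretches of 31 bases with the pseudogene Krt8-ps, which had at most 20 counts in any library.

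Krt18 (chr15:102028216-102032026, plus strand), the filament partner of Krt8, had 356, 453 and 468 cpm in METTL7A1 cells and 370, 393 and 318 cpm in mock cells. METTL7A1 replicates 2 and 3 stood above every mock library, and METTL7A1 replicate 1 lay within the mock range. The means of 426 ± 60.9 and 360 ± 38.2 cpm (SD, n = 3 each) gave a log2 fold change of 0.24 (SE 0.11, 95% interval -0.01 to 0.49) that did not pass the test (edgeR adjusted p = 0.114). Without METTL7A1 replicate 1 the value was 0.37 (edgeR adjusted p = 0.00616), so 1 library decided the call. With no abundance filter it was also called, at 0.28 (edgeR adjusted p = 0.0214), in a fit whose p-values have the limit given below for Krt17.

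Krt19 (chr11:100140810-100146120, minus strand), a type I keratin with a very short tail, had 41.1, 47.6 and 49.6 cpm in METTL7A1 cells and 55.8, 57.9 and 47.3 cpm in mock cells. Mock replicate 3 lay within the METTL7A1 range and the other mock libraries lay above it. The log2 fold change of -0.21 (SE 0.10, 95% interval -0.43 to 0.00) did not pass the test (edgeR adjusted p = 0.0951). Without mock replicate 3 it was -0.29 and passed (edgeR adjusted p = 0.0212).

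Of the basal keratins, Krt14 was the 1 with a measurable level, and it had the largest change of the 7 tested members. Reads of Krt14 (chr11:100203162-100207548, minus strand) numbered 168, 310 and 242 in METTL7A1 libraries and 688, 947 and 914 in mock libraries, in the order of the replicates. Scaled to library size these were 9.05, 10.5 and 9.81 cpm against 37.6, 39.1 and 36.8 cpm. The gap between the groups was many times wider than the range within either group. The mean fell from 37.8 ± 1.16 to 9.79 ± 0.722 cpm (SD, n = 3 per group), giving a log2 fold change of -1.94 (SE 0.09, 95% interval -2.14 to -1.75, edgeR adjusted p = 7.54e-08). The level was 3.85-fold lower (95% interval 3.37 to 4.39), which ranked 86 among the falls of the 13166 tested genes.

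Krt5, the type II partner of Krt14, had 0 counts in all 6 libraries, so that levels of up to 0.102 cpm in the deepest and 0.164 cpm in the shallowest scaled library remain possible (3 counts, counting error only). Krt17 (chr11:100256217-100261029, minus strand) had 1, 12 and 1 counts in METTL7A1 cells and 14, 10 and 19 counts in mock cells. METTL7A1 replicate 2, at 0.406 cpm, stood apart from the other libraries of its group and next to mock replicate 2 at 0.413 cpm. Over all libraries the counts were 14 against 43, a level 3.32-fold lower in METTL7A1 cells with an exact binomial 95% interval of 1.78 to 6.56 that covers counting error only. When genes were tested without an abundance filter the log2 fold change of Krt17 was -1.71 (SE 0.49, edgeR adjusted p = 0.00381). In that fit the edgeR adjusted p of Krt14 was 3.13e-63, against 7.54e-08 in the main test. Its p-values may therefore measure little of a gene's own spread between libraries, such as the 1, 12 and 1 counts of Krt17. Krt17 shares 11.8% of its stretches of 31 bases with Krt14, and Krt14 shares 17.6% with Krt16 and 10.5% with Krt17, so reads of these genes could be exchanged; the treatment of reads with several matches is not given in the sources used here. Krt16 had at most 89 counts in any library, and its log2 difference was 0.02 (SE 0.19, edgeR adjusted p = 0.957).

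Krt80 and Krt20 belong to neither class. Krt80 (chr15:101349571-101370125, minus strand), a type II keratin, had 34.1, 34.7 and 41.7 cpm in METTL7A1 cells and 22.1, 22.5 and 23.7 cpm in mock cells. All METTL7A1 libraries lay above all mock libraries, with METTL7A1 replicate 3 the highest. The mean rose from 22.8 ± 0.801 to 36.8 ± 4.21 cpm (SD, n = 3 per group), giving a log2 fold change of 0.69 (SE 0.09, 95% interval 0.49 to 0.90, edgeR adjusted p = 0.000162), or 1.62-fold. Krt20, a keratin of gut and urothelium, had 2, 3 and 3 counts in METTL7A1 cells and 1 count in each mock library, too few in either group for a fold change.

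Vim (chr2:13573952-13582826, plus strand) had 220, 264 and 272 cpm in METTL7A1 cells and 582, 613 and 498 cpm in mock cells. The lowest mock library stood well above the highest METTL7A1 library. The mean fell from 564 ± 59.5 to 252 ± 27.6 cpm (SD, n = 3 per group), giving a log2 fold change of -1.16 (SE 0.11, 95% interval -1.39 to -0.93, edgeR adjusted p = 1.17e-05). The level was 2.24-fold lower (95% interval 1.91 to 2.63). Vimentin took 0.0521% to 0.0592% of all counts in mock libraries and 0.0222% to 0.0275% in METTL7A1 libraries. As a check for other cells that make vimentin, the 5 fibroblast markers summed to 23.8 to 26.7 cpm in METTL7A1 and 17.4 to 19.8 cpm in mock libraries, nearly all of it Pdgfra, which rose (log2 fold change 0.47, SE 0.09, edgeR adjusted p = 0.00177). Thy1 had at most 1 count, Col3a1 at most 2 counts and Col1a2 at most 4 counts in any library. Col1a1 had 9, 17 and 11 counts in METTL7A1 and 22, 11 and 16 counts in mock libraries.

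**Figure D2:**
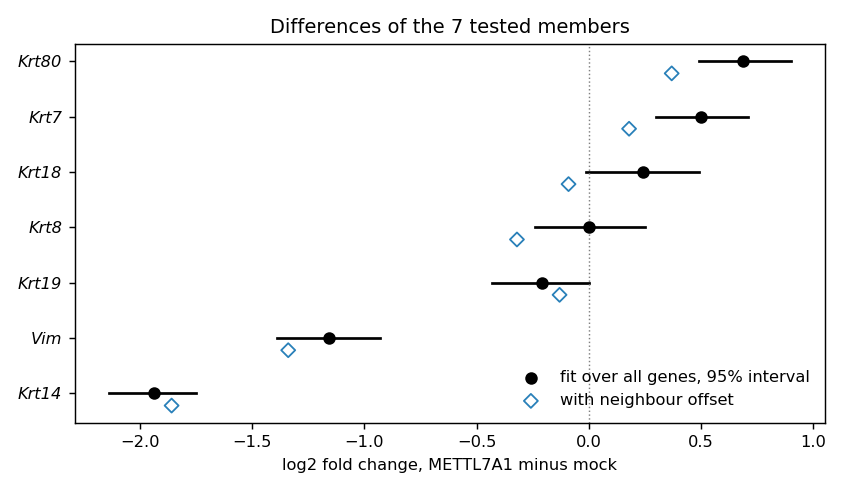
Log2 fold change of each tested member, METTL7A1 minus mock (horizontal axis), with its 95% interval from edgeR (black), and the value after subtracting the median change of 40 chromosome neighbours (blue diamonds). Krt14 at -1.94 and Vim at -1.16 lie far to the left. The blue diamonds of Krt7, Krt8, Krt18, Krt80 and Vim lie left of the black points, and those of Krt14 and Krt19 lie right of them.

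The simple and basal classes were then contrasted within each library, which removes the library size. Summed over Krt7, Krt8, Krt18 and Krt19, the simple keratins had 595, 722 and 749 cpm per kb in METTL7A1 cells and 629, 660 and 534 cpm per kb in mock cells, and the groups overlapped. The basal sum, nearly all Krt14, was 5.37, 6.44 and 5.81 cpm per kb in METTL7A1 cells and 22.6, 23.3 and 22.2 cpm per kb in mock cells, with no overlap. The ratio of simple to basal keratins was therefore 111, 112 and 129 in METTL7A1 libraries and 27.8, 28.3 and 24.1 in mock libraries. On the log2 scale the group means were 6.87 ± 0.12 and 4.74 ± 0.13 (SD, n = 3 each), a difference of 2.13, which is given as a description with no test. The simple sum, with overlapping groups, contributed little of this difference, and Krt14 most of it.

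The balance of keratins to vimentin was very even among replicates. The 9 keratins together had 619, 748 and 778 cpm per kb in METTL7A1 cells and 664, 696 and 570 cpm per kb in mock cells, with overlapping groups. Divided by Vim in the same library they gave 6.16, 6.22 and 6.28 in METTL7A1 and between 2.49 and 2.51 in mock libraries. The replicates thus varied far less in this ratio than in either part of it, and METTL7A1 replicate 1 and mock replicate 3, which were low in several simple keratins, were low in Vim as well. The log2 ratio was 2.64 ± 0.01 against 1.32 ± 0.01 (SD, n = 3 each), a difference of 1.32.

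The make-up of the keratins was set out as ratios and shares, again with no test. Krt8 relative to Krt18, the type II and type I chains of 1 filament pair, was 0.770, 0.733 and 0.723 in METTL7A1 and 0.895, 0.870 and 0.847 in mock libraries, without overlap, although neither gene passed the test on its own. Krt7 relative to Krt8, both type II, was 0.605, 0.553 and 0.583 in METTL7A1 and 0.393, 0.403 and 0.437 in mock libraries. As a share of all 9 keratins per kb, Krt8 made up 31.5% ± 0.336 in METTL7A1 and 34.8% ± 0.925 in mock cells, and Krt7 made up 18.3% ± 0.802 and 14.3% ± 0.415 (SD, n = 3 each). Krt14 made up 0.810% ± 0.0609 and 3.48% ± 0.279. The sum of the type II chains over the sum of the type I chains was 1.17, 1.08 and 1.09 in METTL7A1 and 1.06, 1.04 and 1.04 in mock libraries, without overlap. How near to equal the chains were depends on the exon lengths used, 4094 bases for Krt7 against 1805 for Krt8 and 1400 for Krt18. The treatment of reads with several matches, which is not given, also limits ratios and shares between genes. The groups were compared with the same lengths in every library.

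**Figure D3:**
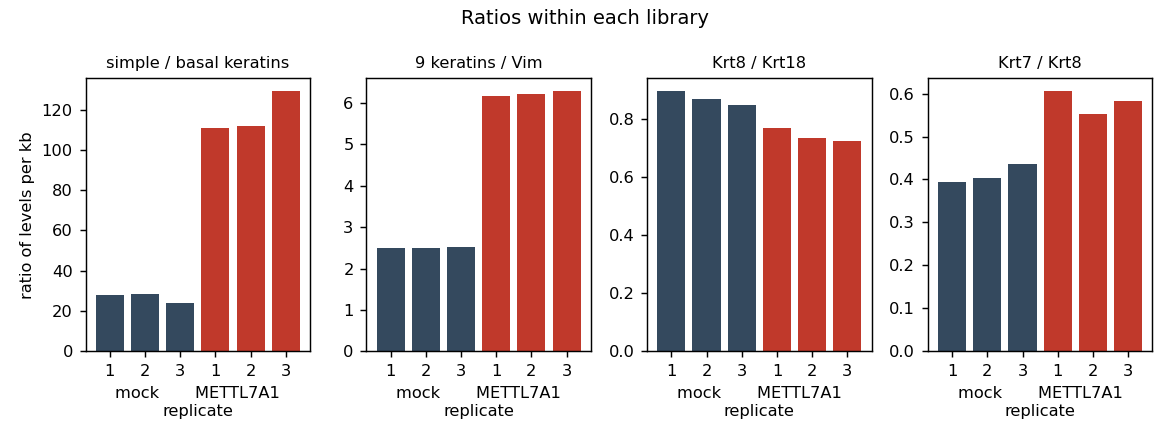
Ratios of levels per kb (vertical axes, starting at 0) within each library, 3 mock libraries in dark blue and 3 METTL7A1 libraries in red. The ratio of simple to basal keratins was 24.1 to 28.3 in mock and 111 to 129 in METTL7A1 libraries, the ratio of the 9 keratins to Vim 2.49 to 2.51 and 6.16 to 6.28, and the groups are separate in all 4 panels.

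Krt7, Krt8, Krt18 and Krt80 lie in the type II keratin cluster of chromosome 15, which Krt18 adjoins as its single type I gene, and Krt14, Krt17, Krt19 and Krt20 lie in the type I cluster of chromosome 11. Mettl7a1 is itself on chromosome 15, 1.11 Mb from Krt7. Each member was set beside the 40 nearest genes of its chromosome with a mean abundance over 2 on the log2 cpm scale. Among the neighbours of Krt7 23 genes rose and 0 fell, with a median log2 fold change of 0.33, and Krt7 ranked 13 of 41 from the highest. Krt80 ranked 7, Krt18 ranked 26 and Krt8 ranked 38 of 41 among themselves and their own neighbours, of which 23 or 24 rose and 0 fell. These sets of neighbours largely overlap, so their counts are not separate observations. Over all tested genes, including those too low to count as neighbours, 21.1% rose and 21.0% fell. The neighbours of Krt7, Krt8, Krt18 and Krt80, here and in the subtraction below, included the transfected gene Mettl7a1, at a log2 fold change of 8.17. Except where keratins were left out, they also included the other tested members of chromosome 15. On chromosome 11 the neighbours of Krt14 had a median of -0.08, with 8 higher and 8 lower, and Krt14 was the lowest of 41. Krt14 lies between Krt19, whose log2 difference was -0.21, and Krt16, at 0.02. Vim was likewise the lowest of 41, among neighbours of which 15 rose and 2 fell. The neighbours of Vim reached as far as 7.57 Mb, against 1.69 Mb for those of Krt7.

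When the median of the neighbours was subtracted, the difference of Krt7 was 0.18 (SE 0.09) and its call was lost (edgeR adjusted p = 0.166), and that of Krt8 was -0.32 (SE 0.11) and passed as lower (edgeR adjusted p = 0.045). With keratins left out of the neighbours, an alternative chosen after seeing the data, Krt8 was at -0.30 and did not pass (edgeR adjusted p = 0.0612). Krt80 kept its call at 0.37 (SE 0.09, edgeR adjusted p = 0.011). Krt14 at -1.86 and Vim at -1.34 kept theirs (edgeR adjusted p = 1.19e-07 and 4.5e-06). The part of the shared chromosome 15 rise in the values of Krt7 and Krt80 was not tested further.

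**Figure D4:**
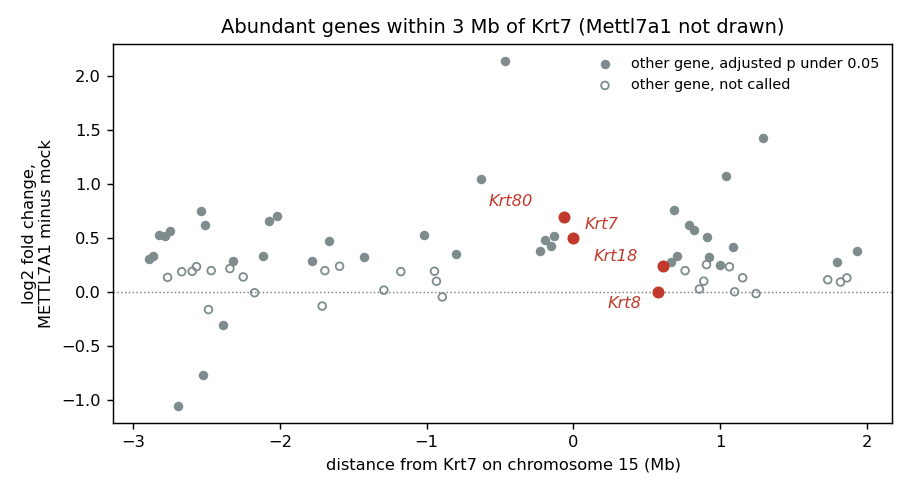
Log2 fold change, METTL7A1 minus mock (vertical axis), of genes with a mean abundance over 2 on the log2 cpm scale within 3 Mb of Krt7 on chromosome 15, by distance from Krt7 in Mb, with the 4 members in red and other genes in grey (filled where the adjusted p was under 0.05). Most grey points lie above 0, Krt80 at 0.69 and Krt7 at 0.50 lie among the higher of the points near them, and Krt8 at 0.00 lies at the lower edge of the points near it.

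The promoter windows of the simple keratins of chromosome 15 and of Vim are shown because these 4 most abundant members moved differently: Krt7 rose, Krt8 and Krt18 did not pass the test and Vim fell. Each window runs from 250 bases before to 50 bases after the RefSeq start (GRCm38.p6), written 5′ to 3′ in the direction of the gene, and capitals mark matches to 4 motifs, each searched on both strands. The TATA box, which positions the start of transcription, was searched for as TATAAA. The GC box, bound by Sp1 and related factors, was searched for as GGGCGG. The site of the AP-1 factors, in which N stands for any base, was searched for as TGANTCA. The E-box bound by Snail and Zeb repressors was searched for as CACCTG. RefSeq windows were matched for 7 of the 10 members. The 4 windows are at chr15:101412153-101412452 (Krt7, plus strand), chr15:102004293-102004592 (Krt8, minus strand), chr15:102027966-102028265 (Krt18, plus strand) and chr2:13574061-13574360 (Vim, plus strand, with its start 359 bases inside the 5′ end that the count table gives).
Krt7: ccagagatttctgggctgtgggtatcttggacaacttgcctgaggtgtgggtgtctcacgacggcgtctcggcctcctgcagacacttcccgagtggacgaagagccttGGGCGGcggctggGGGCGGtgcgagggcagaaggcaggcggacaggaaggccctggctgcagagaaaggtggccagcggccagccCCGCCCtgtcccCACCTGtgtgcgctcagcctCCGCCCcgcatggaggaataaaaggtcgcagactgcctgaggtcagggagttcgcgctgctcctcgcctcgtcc
Krt8: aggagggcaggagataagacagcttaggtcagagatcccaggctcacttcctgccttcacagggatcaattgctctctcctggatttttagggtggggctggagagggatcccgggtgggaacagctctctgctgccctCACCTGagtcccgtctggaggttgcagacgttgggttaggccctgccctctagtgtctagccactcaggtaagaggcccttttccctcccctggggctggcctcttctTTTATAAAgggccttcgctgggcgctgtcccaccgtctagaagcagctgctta
Krt18: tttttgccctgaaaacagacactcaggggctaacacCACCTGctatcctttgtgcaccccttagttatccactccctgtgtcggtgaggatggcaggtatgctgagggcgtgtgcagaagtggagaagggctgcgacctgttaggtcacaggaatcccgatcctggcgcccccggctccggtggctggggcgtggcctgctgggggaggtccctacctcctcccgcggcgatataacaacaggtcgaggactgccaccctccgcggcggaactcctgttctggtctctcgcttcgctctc
Vim: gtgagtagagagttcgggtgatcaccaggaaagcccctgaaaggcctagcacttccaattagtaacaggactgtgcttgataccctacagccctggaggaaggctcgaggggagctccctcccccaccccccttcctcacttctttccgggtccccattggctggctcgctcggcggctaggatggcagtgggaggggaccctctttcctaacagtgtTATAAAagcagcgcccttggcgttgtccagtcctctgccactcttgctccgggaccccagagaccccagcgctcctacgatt

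The Krt7 window held 4 GC boxes and 1 E-box, which begins 44 bases before the start. The Krt8 window held 1 E-box, 111 bases before the start, and overlapping TATAAA matches on both strands at the start itself. The Krt18 window held 1 E-box 214 bases before the start, and the Vim window held TATAAA 32 bases before the start. None of the 4 held TGANTCA. Among 32851 RefSeq windows of the same length, 35.7% held the GC box, 20.2% the E-box, 13.6% the TATA box and 7.81% the AP-1 site. A match describes letters in the window and not a bound site.

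Other keratins had few counts. Of 41 other symbols made of Krt and a number, 20 had 0 counts in all libraries and 39 had at most 6 counts in any library. The 4 symbols with a letter after the number (Krt6a, Krt6b, Krt33a and Krt33b) had at most 1 count in any library. Krt16 and Krt10 were tested and neither was called. Krt10, a keratin of differentiating epidermis, had 1.54 ± 0.290 cpm in METTL7A1 and 1.54 ± 0.501 cpm in mock cells (SD, n = 3 each, edgeR adjusted p = 0.991).

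Of 17 other intermediate filament genes, 7 were tested, of which 4 fell, 2 rose and 1 did not pass, with a median log2 fold change of -0.30, against -0.03 and 42.1% called over all tested genes. Nes, encoding nestin, which assembles together with vimentin, had 206, 201 and 203 cpm in METTL7A1 and 337, 355 and 320 cpm in mock libraries, and fell by 0.73 on the log2 scale (SE 0.07, edgeR adjusted p = 2.16e-05). Both filament genes, Vim and Nes, thus had every METTL7A1 library below every mock library. Nefh, a neurofilament subunit, had 2, 3 and 2 counts in METTL7A1 and 57, 76 and 68 counts in mock libraries, a level 31-fold lower with an exact binomial 95% interval of 14.8 to 78.1 for counting error (edgeR adjusted p = 9.35e-07). Lmna, the A-type nuclear lamin, fell by 0.48 (SE 0.11, edgeR adjusted p = 0.00425), whereas Lmnb1, a B-type lamin, rose by 0.48 (SE 0.08, edgeR adjusted p = 0.000622), both on the log2 scale. Iffo2 fell by 0.30 (SE 0.07, edgeR adjusted p = 0.00666), and Sync, encoding syncoilin and named after its values were seen, rose by 0.80 (SE 0.21, edgeR adjusted p = 0.0104) at a low level.

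Of 13 linkers and keratin-bound proteins, 12 were tested, of which 5 rose, 3 fell and 4 did not pass, with a median log2 fold change of 0.10, beside 42.1% called and a median of -0.03 over all tested genes. Ppl (periplakin, a keratin linker) had 84.8, 97.4 and 92.7 cpm in METTL7A1 and 63.8, 65.4 and 60.7 cpm in mock libraries, and rose by 0.53 on the log2 scale (SE 0.07, edgeR adjusted p = 0.000193). Jup (plakoglobin, of desmosomes and adherens junctions) rose by 0.54 (SE 0.08, edgeR adjusted p = 0.000456). All METTL7A1 libraries of both genes lay above all mock libraries. Desmosomal genes did not move 1 way, since Dsp (desmoplakin, which anchors keratins) fell by 0.33 (SE 0.08, edgeR adjusted p = 0.00591) and Pkp1 (plakophilin) fell by 0.74 (SE 0.17, edgeR adjusted p = 0.00547). Dst, a spectraplakin that ties keratins to hemidesmosomes in basal cells, rose by 0.37 (SE 0.10, edgeR adjusted p = 0.013). The other calls were those of Plec (plectin, a large crosslinker of filaments) and Macf1, which rose, and Fam83h, which fell.

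**Figure D5:**
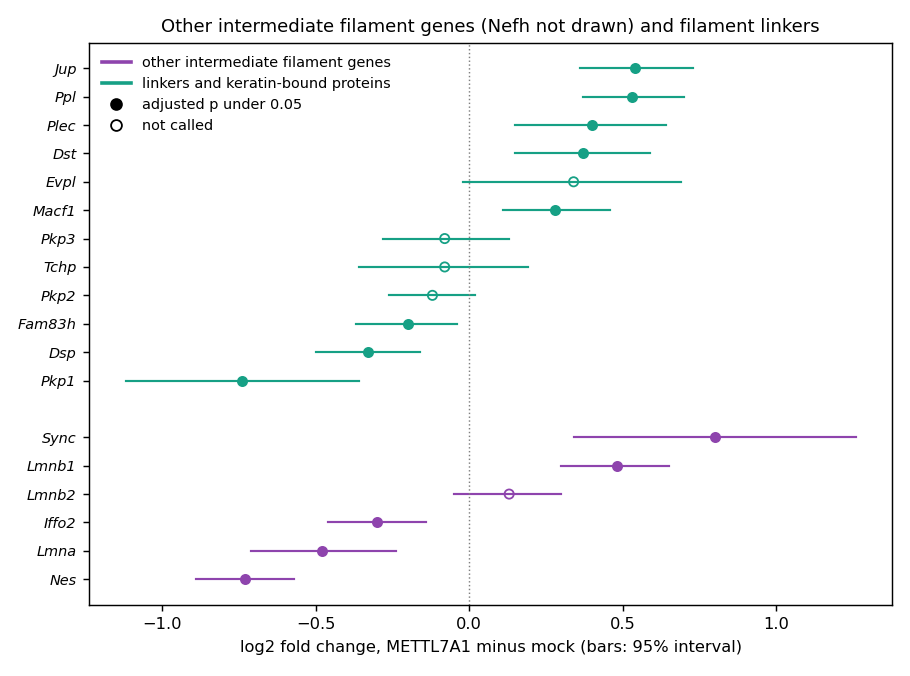
Log2 fold change, METTL7A1 minus mock (horizontal axis, bars for the 95% interval from edgeR), of tested genes for other intermediate filament proteins (purple) and for filament linkers (green), with filled points where the adjusted p was under 0.05 and Nefh, which had at most 3 counts in each METTL7A1 library, not drawn. The purple points drawn run from Nes at -0.73 to Sync at 0.80, and the linkers run from Pkp1 at -0.74 to Jup at 0.54.

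Of 12 transcription factors known to act on keratin genes, 8 were tested, of which 2 rose, 2 fell and 4 did not pass, with a median log2 fold change of -0.05, so that the share called was near the 42.1% of all tested genes. Elf3, an epithelial ETS factor, rose by 0.48 (SE 0.09, edgeR adjusted p = 0.00188) and Cebpb by 0.47 (SE 0.16, edgeR adjusted p = 0.0379), both on the log2 scale. Klf5 fell by 0.29 (SE 0.08, edgeR adjusted p = 0.0106) and Grhl1 by 0.64 (SE 0.18, edgeR adjusted p = 0.0133). Trp63, the p63 gene that drives Krt5 and Krt14 in basal epithelium, had at most 2 counts in any library.

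Markers of the cell layers that express these keratins were set beside them. Of the 5 epithelial markers Cldn3, Cldn4 and Cldn7, claudins of tight junctions, rose, with log2 fold changes of 1.49 (SE 0.15, edgeR adjusted p = 1.96e-05), 1.19 (SE 0.12, edgeR adjusted p = 2.4e-05) and 0.33 (SE 0.11, edgeR adjusted p = 0.0298). Epcam at -0.16 and Cdh1 at -0.02 did not pass the test. Over all tested genes 42.1% were called and 21.1% rose. The groups of Cldn7 overlapped, with METTL7A1 replicate 1 at 61.8 cpm and the mock libraries at 57 to 62.4 cpm. Of the 5 myoepithelial markers Mylk, a gene of smooth muscle contraction, alone was abundant enough to test, with 2.11 to 2.53 cpm in METTL7A1 and 1.69 cpm in each mock library, and it was not called (edgeR adjusted p = 0.0737). Their sum of 2.55 to 3.07 cpm in METTL7A1 and 1.94 to 2.58 cpm in mock libraries was mostly Mylk, which made up 1.69 of the 2.58 cpm in mock replicate 3. Myh11 had at most 10, Acta2 at most 7, Oxtr at most 6 and Cnn1 at most 4 counts in any library, too few to compare.

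Genes outside the 10 members were ranked by how closely their log2 level followed a member over the 6 libraries, as a description with no test. For Krt18 the closest were Dhrs7 (Pearson r = 0.9996), Oxct1 (0.9947) and Rpl41 (0.9937). For Krt14 they were Ggct (0.9989), Spns2 (0.9988) and Nin (0.9988). For Vim they were Ubac2 (0.9999), Klk10 (0.9994) and Polr1d (0.9993). These genes were picked as the highest of all tested genes over only 6 libraries, so a high r alone says little. Krt18 and its companions did not pass the test between the groups. The points share libraries and 2 groups, and Krt14, Vim and their companions all differed between the groups. The log2 fold changes of their companions ran from -0.65 (Nin) to -1.28 (Spns2).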

How the data were processed

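Total RNA libraries, stranded and depleted of ribosomal RNA, were sequenced on the NovaSeq platform. Reads were trimmed by the authors, mapped to mm10 with STAR 2.5.3a and assigned to genes of the Ensembl annotation with featureCounts. The deposited values are raw counts for each gene, not normalized. The exon length in the deposited table is a property of the annotation. Strand setting and multiple matches are not given in the sources used here. Library totals of 18386780 to 28459338 counts limit the precision for Krt5, Krt17 and Krt20.

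Groups and replicate numbers came from the sample titles. Counts were scaled with TMM factors and tested with edgeR 4.0.16 (glmQLFit, glmQLFTest; R 4.3.3), 3 METTL7A1 against 3 mock libraries with no covariate, over 13166 genes with at least 1 cpm in at least 3 libraries, the filter of the study. Adjusted p-values are Benjamini-Hochberg over these genes. The test was tried on simulated counts first. SE was the log2 fold change divided by the square root of F, and intervals are at 95%. The log base of the study's threshold was taken as 2. Class sums and ratios used cpm per kb and had no test.

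Members and lists were chosen with earlier results of these data known. Named genes were all members, Mettl7a1, at most 5 called genes of each list by smallest p and any on which a result turns, nearest tested neighbours, and the 3 genes most correlated (log2 of cpm plus 0.5) with Krt18, Krt14 and Vim. Replicate numbers were not used to pair libraries in the main test. Deviations of libraries with the same number correlated at -0.16, 0.23 and -0.39, which cannot show whether such libraries were prepared together. Alternatives were RLE and upper quartile scaling, other abundance filters, removal of the 20 most abundant genes, a replicate block, omission of each library, DESeq2 1.42.0, limma 3.58.1 (voom) and the neighbour offset. Shared stretches of 31 bases were counted over GENCODE M21 transcripts. Eppk1 was not analysed here.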

Additional observations from a re-analysis of the deposited data

How the results depend on the processing

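Krt14, Krt80 and Vim kept direction and call under all 16 alternatives, with log2 fold changes of -2.0 to -1.86, 0.37 to 0.75 and -1.34 to -1.06. Krt7 kept its call under 14 and lost it with the neighbour offset (0.18, adjusted p = 0.166) and, in an alternative chosen after seeing the data that left keratins out of the neighbours, at 0.20 (adjusted p = 0.127). Under these 2 offsets Krt8 was -0.32 and -0.30 and Krt18 -0.09 and -0.06, so their sign turned; Krt8 was called under the first (adjusted p = 0.045) and not under the second (adjusted p = 0.0612). The offset treats the neighbours' median as known. With a library left out, Krt8 ran from -0.09 to 0.11. The number of members called ran from 3 to 6 (4 to 5 with a library left out), with Krt17 and Krt18 added when no abundance filter was used. Without that filter, p-values may measure little of a gene's own spread between libraries. Genes past the thresholds of the study numbered 326, but 710 of 28601 with no abundance filter, 205 with at least 10 counts in every library, and 243 to 282 with a library left out. Genes at an adjusted p under 0.05 ran from 3761 to 5753 with a library left out. With replicate number as a block, 4 members were called, and the block changed no member's call. The simple minus basal difference of 2.13 ran from 2.06 to 2.18 with a library left out. It was 2.46 as a difference of mean log2 levels, in which Krt17 weighed as much as Krt14. Without the most abundant gene of each class it was 2.83. The basal class was then Krt17 alone, since Krt5 had 0 counts. Krt17 had 1, 12 and 1 counts in METTL7A1 and 14, 10 and 19 counts in mock libraries, so this value rests on few counts. The keratin minus vimentin difference of 1.32 was 1.04 as a mean of log2 levels of the tested keratins. In that mean Krt14 weighed as much as each other tested keratin. Depth limits Krt5, Krt17 and Krt20, and 3 libraries per group limit Krt18 and Krt19.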
